A study of Drosophila simulans with 12 samples.

Results

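The 10 heat shock protein genes Hsp22, Hsp23, Hsp26, Hsp27, Hsp67Ba, Hsp67Bc, Hsp60B, Hsp60C, Hsp68 and Hsp83 were taken by their symbols in the array annotation and compared between males of a sterile and a fertile line, in testis and in abdomen. Of these, 5 (Hsp26, Hsp27, Hsp60B, Hsp60C and Hsp68) had a probe set of their own on both arrays, among 12071 genes with a probe set of their own in the series. Hsp22 was represented only by probe sets annotated to Hsp22 and CG4456 together, which are described as such. Hsp23, Hsp67Ba, Hsp67Bc and Hsp83 had no listed probe set and were not analysed here. All 5 members with their own probe set passed the filter on dim probe sets and were tested in both tissues.

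The males were Drosophila simulans that carried a piece of the X chromosome from D. mauritiana including the OdsH locus, in a sterile form (S) or a fertile form (F). The S and F pieces differ by about 3 Kb with exons 3 to 4 of OdsH, so the fertile controls carry a D. mauritiana introgression too. Flies were aged 3 to 4 days. Testes came from about 150 males and abdomens from about 50. Both lines and both tissues had 3 RNA extractions, each on its own array, so that 12 arrays fell into 4 groups of 3. Each condition is 1 introgression line, and separate cultures behind the 3 extractions are not stated. The p-values therefore measure the spread between arrays, which may be technical.

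Heat shock proteins are molecular chaperones, which hold or refold proteins that have lost their shape. Small heat shock proteins such as Hsp22, Hsp26 and Hsp27 bind unfolded proteins without using ATP. Hsp60 chaperonins fold proteins inside a closed chamber in mitochondria, and Hsp70 proteins such as Hsp68 bind and release short stretches of unfolded chains with ATP. In D. melanogaster many of these genes are switched on by heat through the transcription factor Hsf, and several, Hsp26 and Hsp27 among them, are also transcribed in the gonads without heat. In that species Hsp60B is needed for the last steps of sperm formation, and Hsp60C for spermatogenesis and for the tracheae.

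Intensities are fluorescence units on a linear scale, and the short probes of a transcript are combined into a probe set. Both array designs were made for D. melanogaster genes, and mismatches of the probes with the D. simulans sequence were not corrected. Fold changes are sterile minus fertile on the log2(intensity + 16) scale, and a change was called at a Benjamini-Hochberg adjusted p under 0.05 in limma, over all probe sets tested in that tissue. Array medians lay between 212 and 216 in sterile testis, between 219 and 222 in fertile testis and between 208 and 223 in abdomen. OdsH was called absent on all testis arrays, at 128 ± 4.33 (SD, n = 3) in the sterile and 165 ± 25.1 (SD, n = 3) in the fertile line, so its probe set did not check the labels. In testis 14 of 16 germ cell markers were called present on all arrays of both lines, and the markers summed to between 53658 and 54572 in the sterile and between 55370 and 55876 in the fertile line. Of 14 germ cell markers tested, 3 were higher and 5 lower in the sterile line. Over all testis probe sets tested, 22.6% were higher and 37.8% lower. Accessory gland markers summed to between 49713 and 51065 against between 53579 and 53989, with 1 higher and 5 lower of 10 tested. Midgut markers summed to between 1613 and 1625 in sterile testis and to between 16997 and 17182 in fertile testis. All 8 midgut markers tested were lower in the sterile line, where Jon25Bi, Jon25Biii, epsilonTry and Mal-A1 were called absent on all arrays. Of 11 midgut markers on the array, 2 were called present on all sterile and 8 on all fertile testis arrays. Most of those tested thus entered the fit through the fertile line, where they are high, so the count of 8 adds little to the sums. The sums cover all 11 markers on the array, without the filter. LysS was called absent on all testis arrays of both lines. Fat body markers summed to between 7276 and 7328 against between 8939 and 9148, and hub and cyst cell markers to between 1076 and 1134 against between 902 and 963. The part of such other tissue in the results below was not tested.

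In testis the small heat shock genes moved in opposite directions between the lines. Hsp27 fell in the sterile line, by 0.58 on the log2 scale, while Hsp26 rose by 0.16. Hsp27 (probe set 1628117_at) stood at 1491, 1606 and 1541 on the sterile arrays and at 2292, 2399 and 2261 on the fertile arrays. Every sterile array was far below every fertile one, and the groups did not overlap. The means were 1546 ± 57.9 and 2318 ± 72.5 (SD, n = 3 each), a 1.5-fold higher intensity in the fertile line. The log2 fold change was -0.58 ± 0.03 (SE; 95% interval -0.64 to -0.51; limma adjusted p = 8.12e-11). In bulk tissue, fewer cells of a type that holds Hsp27 RNA and less RNA per cell cannot be told apart.

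Hsp26 (1635044_at) stood at 3999, 4002 and 4066 on the sterile arrays and at 3541, 3611 and 3623 on the fertile arrays. The sterile arrays were all higher, again without overlap, but by a much smaller step than the one seen for Hsp27. The means were 4022 ± 37.9 and 3592 ± 44.4 (SD, n = 3 each), a step of 0.16 ± 0.02 on the log2 scale (SE; limma adjusted p = 2.11e-06). Hsp26 rose and Hsp27 fell under each of the 13 alternative settings run in testis, with ranges of 0.15 to 0.21 and of -0.61 to -0.53.

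The probe set 1630487_s_at, annotated to Hsp22 and CG4456 together, rose in sterile testis. It stood at 2320, 2439 and 2332 on the sterile arrays and at 1657, 1690 and 1701 on the fertile arrays. The groups did not overlap, and the log2 fold change was 0.49 ± 0.03 (SE; limma adjusted p = 9.53e-11). A second probe set with the same annotation, 1629061_s_at, was called absent on all testis arrays and was not in the fit. Its means were 93.5 ± 6.78 in the sterile and 108 ± 13.0 in the fertile line (SD, n = 3 each; exact two-sided permutation p = 0.2, where 0.1 is the smallest that 3 against 3 arrays allow). Which of the 2 genes gave the rise cannot be told from these probes.

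**Figure D1:**
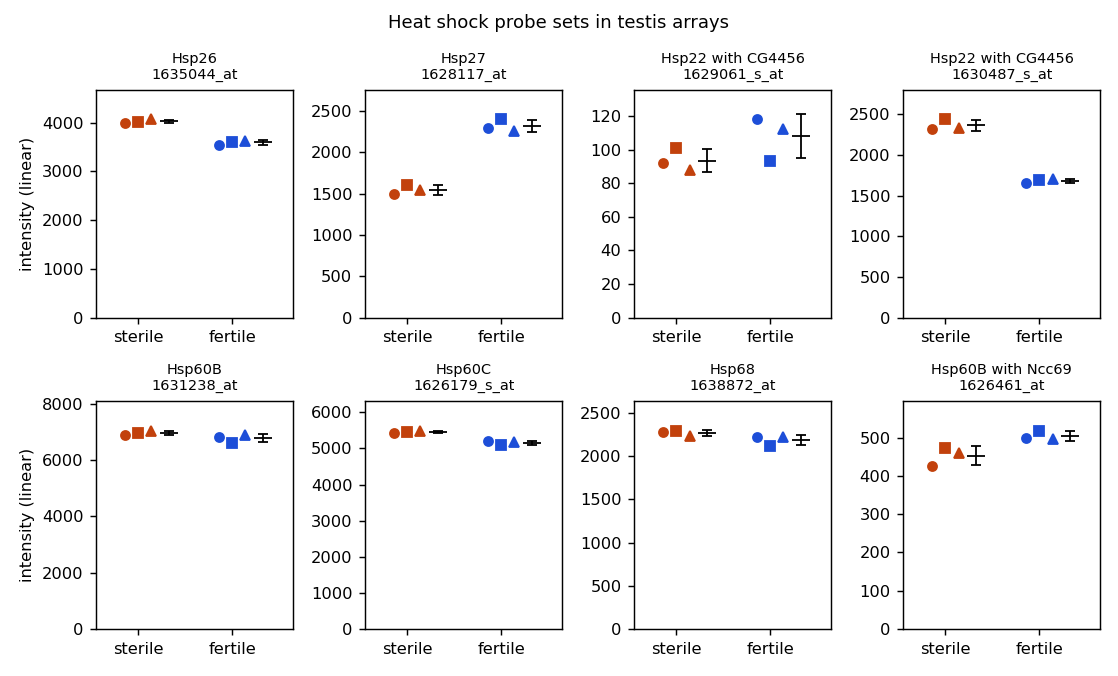
Intensity (linear scale) of each heat shock probe set on the 6 testis arrays, with orange for the sterile line, blue for the fertile line, and circles, squares and triangles for replicates A, B and C. Black bars give the mean ± SD of 3 arrays. Hsp27 lay lower and the Hsp22 with CG4456 probe set 1630487_s_at lay higher on all sterile arrays, while Hsp60B overlapped between the lines.

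Among the chaperonins, Hsp60C rose slightly in sterile testis and Hsp60B did not pass the test. Hsp60C (1626179_s_at) stood at 5436, 5445 and 5493 on the sterile arrays and at 5204, 5090 and 5176 on the fertile arrays. The groups did not overlap, with means of 5458 ± 30.6 and 5157 ± 59.1 (SD, n = 3 each). On the log2 scale the change was 0.08 ± 0.02 (SE; limma adjusted p = 0.000777).

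Hsp60B (1631238_at) stood at 6894, 6973 and 7048 on the sterile arrays and at 6835, 6622 and 6905 on the fertile arrays. Here fertile replicate C lay above sterile replicate A, so the groups overlapped. Its log2 fold change of 0.04 ± 0.02 (SE) did not pass (limma adjusted p = 0.0847). Another probe set, 1626461_at, is annotated to Hsp60B and to Ncc69 together, and stood at 453 ± 24.9 in the sterile and 504 ± 12 in the fertile line (SD, n = 3 each). It was lower without overlap, by -0.15 ± 0.05 on the log2 scale (SE; limma adjusted p = 0.00947). That call was lost when arrays were centred on their medians (adjusted p = 0.0564), with quantile normalization (0.156) and without sterile replicate A (0.0566).

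Hsp68, a stress-inducible relative of the Hsp70 genes, was not called in testis. Its probe set 1638872_at stood at 2276, 2295 and 2232 on the sterile arrays and at 2227, 2123 and 2218 on the fertile arrays. All sterile arrays were the higher ones, yet sterile replicate C was nearly level with fertile replicate A. The log2 fold change was 0.05 ± 0.03 (SE; limma adjusted p = 0.0930). The heat-inducible Hsp70 copies themselves share their probe sets. One set for Hsp70Ba, Hsp70Bb, Hsp70Bbb and Hsp70Bc, 1629827_s_at, stood at 166, 147 and 170 in sterile and at 17.6, -2.40 and 15.3 in fertile testis. It was called present on 100% of the sterile and 33% of the fertile arrays, so it entered the fit through the sterile line. A second set for the same copies, 1626821_s_at, was not tested in the fit and stood at 87.5 ± 7.52 in the sterile and 79.0 ± 10.3 in the fertile line (SD, n = 3 each; exact permutation p = 0.3). The set for Hsp70Aa and Hsp70Ab did not pass the test, at 331 ± 34.1 against 318 ± 13.4 (SD, n = 3 each; limma adjusted p = 0.511). A set shared with CG31343, 1626832_at, stood lower in the sterile line, at 118 ± 3.53 against 299 ± 18.6 (SD, n = 3 each; not in the fit, exact permutation p = 0.1). That set was called present on 0% of the sterile and 33% of the fertile arrays. The set 1632841_x_at for Hsp70Bb and Hsp70Bc had no present call in testis and stood at 87.1 ± 8.65 in the sterile and 62.6 ± 6.85 in the fertile line (SD, n = 3 each; exact permutation p = 0.1). In abdomen no Hsp70 set was bright enough for the fit. There 149782_at stood at 64.5 ± 52.4 in the sterile and 72.1 ± 71.3 in the fertile line, and 151036_f_at, shared with CG5608, at 151 ± 33.3 and 247 ± 44.5 without overlap (SD, n = 3 each; exact permutation p = 0.9 and 0.1). The probe sets for Hsp70 copies thus differed among themselves, and copies this alike can share signal.

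In total, 2 of the 5 members rose, 1 fell and 2 were not called in testis. Of all 9927 probe sets tested there, 60.4% were called, with 22.6% higher and 37.8% lower in the sterile line, so the members' share was near the background. Groups that did not overlap were found for 4 of 5 members, against 64.3% of all probe sets. The members' median log2 fold change was 0.05, against -0.04 over all probe sets tested. The small steps depended on the scaling of the arrays. With arrays centred on their medians, Hsp60B (0.08, limma adjusted p = 0.00295) and Hsp68 (0.10, adjusted p = 0.0075) were called higher too, and with quantile normalization Hsp60B (0.05, adjusted p = 0.0237) and Hsp68 (0.09, adjusted p = 0.0036) also were. The split of all calls then went from 2245 higher and 3750 lower to 2941 and 2941 after centring, and to 3028 and 2959 after quantile normalization. The fall of Hsp27 was called under both.

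The authors' deposited table marks 1233 testis probe sets, Hsp27, 1630487_s_at and the Hsp70 set 1629827_s_at (fold score -16.69) among them. That deposited table gives Hsp27 a fold score of 1.5 toward the fertile line and 1630487_s_at a fold score of -1.40, where negative scores mean higher in the sterile line. Hsp26 (-1.12), Hsp60C (-1.06), Hsp68 (-1.04) and Hsp60B (-1.03) are unmarked in the authors' deposited table.

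In abdomen none of the 5 members was called, and none had an unadjusted limma p under 0.05. Of the 6983 abdomen probe sets tested, 0.544% (38) were called, 0.258% higher and 0.286% lower in the sterile line, while 567 reached an unadjusted p under 0.05. The replicate letters were taken to pair the abdomen arrays, but the abdomen fold changes, intervals and p-values given here are from the fit without this pairing. A fit with the replicate block called 65 probe sets and again no member. Hsp27 (153307_at) stood at 482, 764 and 451 on the sterile arrays and at 400, 464 and 398 on the fertile arrays. Sterile replicate B was far above the rest, and fertile replicate B lay above sterile replicate C, so the groups overlapped. Hsp27 had a log2 fold change of 0.38 there (95% interval -0.19 to 0.94; limma adjusted p = 0.778), and without sterile replicate B it was 0.15.

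Hsp26 (153731_at), the other small heat shock gene, stood at 1181, 1606 and 1592 on the sterile and at 1050, 1560 and 1267 on the fertile arrays of abdomen. Replicate A was the lowest in both lines. Its change was 0.18 on the log2 scale (95% interval -0.28 to 0.63; limma adjusted p = 0.875). The interval holds the testis value of 0.16.

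Hsp60B (152031_at) stood at 1111, 1090 and 1280 on the sterile and at 1120, 994 and 1822 on the fertile arrays of abdomen. Fertile replicate C was the highest by a wide step, and the other fertile arrays lay within or below the sterile range. The log2 fold change was -0.13 (95% interval -0.65 to 0.39; limma adjusted p = 0.937). Hsp60C (145838_at) stood at 363, 443 and 494 on the sterile and at 304, 517 and 582 on the fertile arrays, with a log2 fold change of -0.07 (95% interval -0.71 to 0.57). The sterile arrays all fell inside the range of the fertile ones.

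Hsp68 (143197_at) stood at 526, 466 and 658 on the sterile and at 639, 422 and 964 on the fertile arrays of abdomen. As for Hsp60B, fertile replicate C was the highest and fertile replicate B the lowest. The log2 fold change was -0.23 (95% interval -0.90 to 0.45; limma adjusted p = 0.901). Coefficients of variation of the members ran from 8.94% to 40.4% within a line in abdomen and from 0.561% to 3.75% in testis. The median standard error of the members' log2 fold changes was 0.25 in abdomen and 0.02 in testis. A change of the size seen in testis for Hsp26, Hsp60C or Hsp68 was thus not detectable in abdomen in this fit. With the replicate block the standard errors in abdomen were smaller, at 0.14 for Hsp26, 0.23 for Hsp60C and 0.21 for Hsp68.

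The abdomen arrays hold 3 probe sets annotated to Hsp22 and CG4456 together, and none was called. The set 142837_at stood at 262, 180 and 302 on the sterile and at 611, 602 and 593 on the fertile arrays. The groups did not overlap, against 14.1% of all abdomen probe sets without overlap. This set's change was -1.26 ± 0.25 on the log2 scale (SE; limma adjusted p = 0.0876). The set 142047_at stood at 139, 218 and 369 on the sterile and at 522, 652 and 688 on the fertile arrays (log2 fold change -1.39 ± 0.34, SE; limma adjusted p = 0.172). Its groups did not overlap either, but its sterile arrays spread widely. With the replicate block the limma adjusted p was 0.0734 for 142047_at and 0.0791 for 142837_at. The third set, 142836_at, overlapped between the lines, at 326 ± 37.3 and 390 ± 88.6 (SD, n = 3 each; limma adjusted p = 0.875). The abdomen set shared by Hsp60B and Ncc69 stood at 378 ± 75.6 in the sterile and 315 ± 200 in the fertile line (SD, n = 3 each; limma adjusted p = 0.864).

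**Figure D2:**
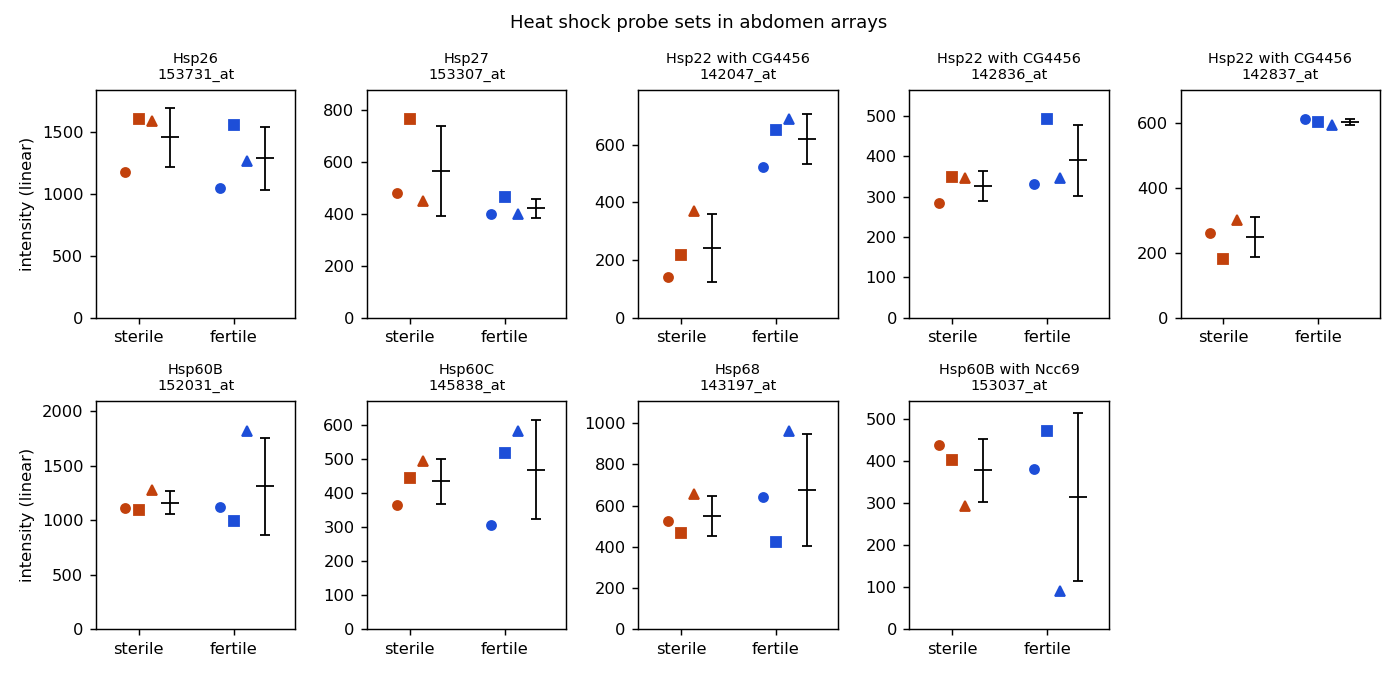
Intensity (linear scale) of each heat shock probe set on the 6 abdomen arrays, with orange for the sterile line, blue for the fertile line, and circles, squares and triangles for replicates A, B and C. Black bars give the mean ± SD of 3 arrays. All 5 members with their own probe set overlapped between the lines, while 142837_at and 142047_at, annotated to Hsp22 with CG4456, did not.

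Whether the line difference itself differed between the tissues was tested as the log2 fold change in testis minus that in abdomen, over the 4774 genes tested in both. Hsp27 was the 1 member called, at -0.96 ± 0.24 (SE; 95% interval -1.47 to -0.44; limma adjusted p = 0.0350). Of all genes, 3.88% were called, with 1.11% above and 2.76% below 0. The Hsp27 call was lost with quantile normalization (adjusted p = 0.0551), without a variance trend (0.0664) and with each tissue fitted separately (0.0693). It was also lost when 1 of 5 abdomen arrays was left out: sterile A (0.0679), sterile B (0.151), fertile A (0.103), fertile B (0.0552) or fertile C (0.118). The difference ran from -1.10 to -0.73 over the 20 alternatives run. In a test of the joint fit on simulated data, more unchanged genes passed than the threshold allows, so its adjusted p-values are likely too small.

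For the other members the difference between tissues did not pass the test. It was -0.02 for Hsp26 (95% interval -0.38 to 0.35), 0.17 for Hsp60B (-0.24 to 0.58), 0.15 for Hsp60C (-0.30 to 0.59) and 0.28 for Hsp68 (-0.26 to 0.81). Each of these intervals holds 0. For probe sets annotated to Hsp22 and CG4456, a comparison was added after the values were seen. The line difference of the testis set 1630487_s_at was opposite in sign to those of the abdomen sets. The dim testis set 1629061_s_at, not in the fit, had the sign of the abdomen sets (log2 fold change -0.17). The testis set 1630487_s_at minus 142837_at gave 1.74 (95% interval 1.29 to 2.20; limma adjusted p = 6.08e-05), and minus 142047_at gave 1.88 (1.30 to 2.46; adjusted p = 0.000388). With each tissue fitted separately these pairs were called too (adjusted p = 0.0027 and 0.0105). Against 142836_at it was 0.72 and not called (adjusted p = 0.0802), and called with the replicate letter as a block (adjusted p = 0.0450). Probe sets of different designs may read different parts of either gene.

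**Figure D3:**
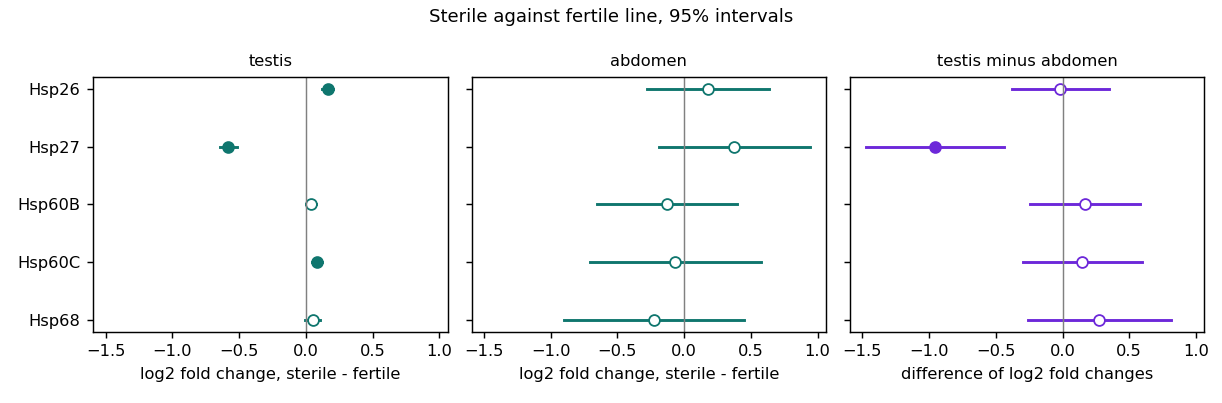
Log2 fold changes (sterile minus fertile) of the 5 members in testis and in abdomen, and the difference testis minus abdomen. Points are estimates, bars are 95% intervals, and filled points passed an adjusted p under 0.05. In testis the intervals are narrow, with Hsp27 at -0.58, while in abdomen every interval crosses 0.

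Over the 6 abdomen arrays, Hsp60B and Hsp68 increased in the same order as the summed intensity of 16 testis germ cell markers, a relation noticed after the values were seen. Of these 16 markers, 9 were bright enough for the abdomen fit. That sum was 31950 on fertile B, 33389 on sterile B, 35100 on sterile A, 37011 on fertile A, 40954 on sterile C and 45412 on fertile C. Of all 6983 abdomen probe sets, 16 (0.229%) followed this exact order. In both lines replicate B had the lowest and replicate C the highest sum, so the replicate letter and the germ cell level cannot be told apart. Since letters were taken to pair the abdomen arrays, these may not be 6 independent samples, and the correlations are given as a description without p-values.

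Pearson's r with the sum was 0.93 for Hsp60B and 0.97 for Hsp68, and 0.93 and 0.98 after centring both measures within each line. The exact order held for the sum, to which the brightest markers contribute most. With the mean log2 intensity of the same markers, Spearman's rho went from 1 to 0.77 for both genes, and r was 0.54 for Hsp60B and 0.73 for Hsp68. Hsp26 (r = -0.24), Hsp27 (r = -0.51) and Hsp60C (r = 0.44) followed the sum less closely.

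Without the 2 arrays farthest from the median of the sum, r was 0.86 for Hsp60B, 0.99 for Hsp68, -0.93 for Hsp26, -0.42 for Hsp27 and -0.99 for Hsp60C. With 4 arrays, r thus moved widely for Hsp26 and Hsp60C. Among the 30 relations of members to marker sums, those to the fat body sum were also steep, at r = -0.90 for Hsp60B, -0.85 for Hsp60C and -0.77 for Hsp68. Without the 2 arrays farthest from the median of the fat body sum, r turned to 0.46 for Hsp60B and 0.88 for Hsp68, and was -0.80 for Hsp60C. Hsp27 had r = 0.76 with the hub and cyst cell sum, and 0.28 without the 2 arrays farthest from that sum's median. The part of these tissues in the spread of the members was not tested.

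**Figure D4:**
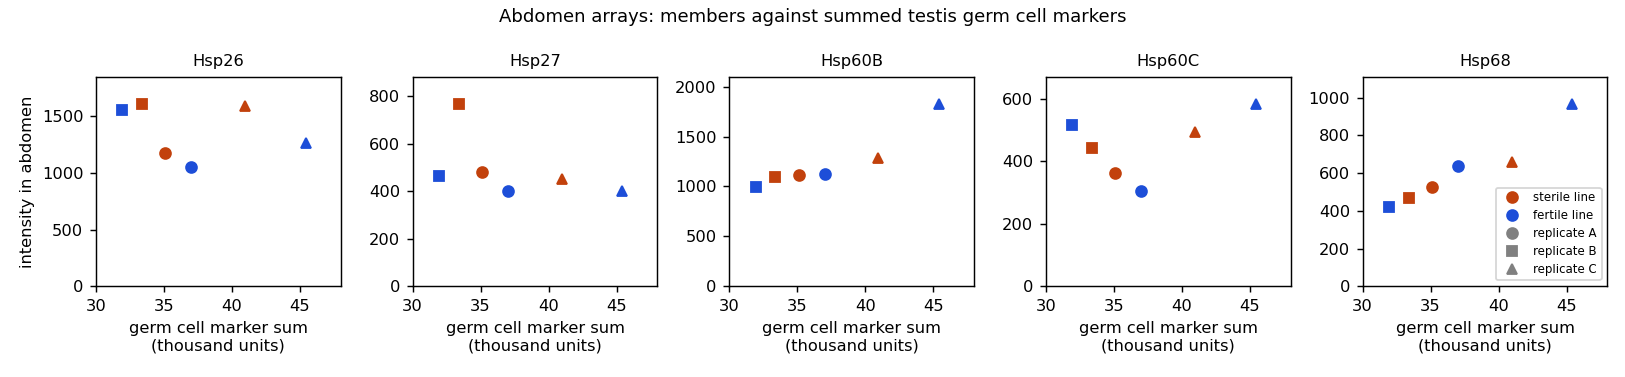
Intensity of each member in abdomen (linear scale) against the summed intensity of testis germ cell markers on the same array, with the sum divided by 1000. Each point is 1 of 6 abdomen arrays, orange for the sterile and blue for the fertile line, with circles, squares and triangles for replicates A, B and C. Hsp60B and Hsp68 increase with the sum at every step, and the other members do not.

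Other genes of the chaperone system were counted by list on the deposited scale, each gene by its brightest probe set, and 22.6% of all testis probe sets were higher and 37.8% lower in the sterile line. Of 5 Hsp70 cognates, which are expressed without heat, 1 rose and 2 fell in sterile testis. Hsc70-1 rose by 0.60 ± 0.02 (log2, SE), from 1901 ± 17.4 in the fertile to 2900 ± 56.1 in the sterile line (SD, n = 3 each; limma adjusted p = 1.41e-12). A second Hsc70-1 probe set rose by 0.46. Another, much dimmer at 64.3 ± 3.79 in the sterile and 76.6 ± 7.09 in the fertile line (SD, n = 3 each), was not called (-0.20). This dim set was called present on 100% of the sterile and 0% of the fertile arrays. Hsc70-3, the Hsp70 of the endoplasmic reticulum, fell by 0.20 ± 0.02 (log2, SE; adjusted p = 3.98e-07).

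Among other small heat shock and alpha-crystallin genes, 2 were tested in testis, 1 of them higher and 1 lower. CG7409 rose by 1.34 ± 0.11 (log2, SE), from 98.3 ± 21.8 to 270 ± 6.16 (SD, n = 3 each; limma adjusted p = 1.57e-08). For l(2)efl, the brightest probe set had a log2 fold change of -0.11 and another one of 0.23. Both passed the test, so no direction is given for the gene. The call on the brightest l(2)efl set was lost under 3 of 13 alternatives.

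Of 4 other mitochondrial chaperonin genes, 2 rose and 1 fell in sterile testis. Hsp60D, a relative of Hsp60B and Hsp60C, rose by 0.33 ± 0.03 (log2, SE; limma adjusted p = 1.30e-08). CG11267 was lower by a log2 fold change of -0.06, a call lost under 8 of 13 alternatives. Hsp60A, the general mitochondrial Hsp60, stood at 4450 ± 48 in the sterile and 4470 ± 67.5 in the fertile line (SD, n = 3 each; limma adjusted p = 0.791).

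Of 10 other Hsp90 genes and co-chaperones, 1 rose, 4 fell and 5 were not called. Cdc37, which brings protein kinases to Hsp90, fell by 0.22 ± 0.03 (log2, SE; limma adjusted p = 1.74e-06). The one that rose, nudC (0.07), lost its call under 5 of 13 alternatives. Of 16 J-domain proteins, which stimulate Hsp70 proteins, 1 rose, 5 fell and 10 were not called. Among them mrj fell by 0.41 ± 0.04 and P58IPK rose by 0.22 ± 0.02 (log2, SE; limma adjusted p = 2.05e-07 and 1.08e-06).

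Of 5 regulators and nucleotide exchange factors, 3 fell and none rose. The Hsp70 co-chaperone stv fell by 0.43 ± 0.04 (log2, SE; limma adjusted p = 3.00e-07). Its probe set was called present on 66% of the sterile and 100% of the fertile arrays, so it entered the fit through the fertile line. Hsf, the activator of heat shock genes, stood at 1485 ± 23.1 in the sterile and 1459 ± 27.7 in the fertile line (SD, n = 3 each; adjusted p = 0.425). In abdomen no gene of any of these lists was called. Hsc70-1 alone had an unadjusted limma p under 0.05 there, at 0.76 ± 0.25 on the log2 scale (SE; adjusted p = 0.409).

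**Figure D5:**
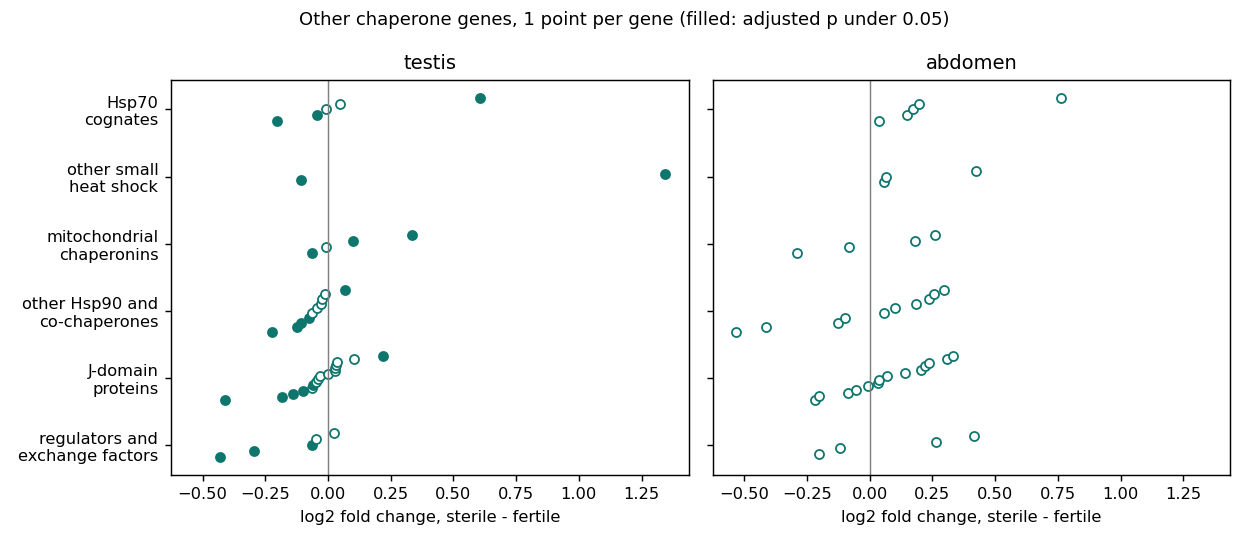
Log2 fold changes (sterile minus fertile) of the other chaperone genes in testis and in abdomen, 1 point per gene, by list. Filled points passed an adjusted p under 0.05. In testis CG7409 (1.34) and Hsc70-1 (0.60) lie farthest to the right and stv (-0.43) and mrj (-0.41) farthest to the left, and in abdomen no point is filled.

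Likeness of pattern was measured as Pearson's r over the 12 arrays, on log2 values centred and scaled within each tissue, among the 4774 genes tested in both, as a description. Each tissue has 3 arrays of each line, so genes that differ between the lines share a pattern for that alone. Hsp60B and Hsp68 were most alike among the members (r = 0.87), followed by Hsp26 and Hsp60C (r = 0.80). Hsp27 was negatively correlated with each other member, from -0.67 with Hsp68 to -0.21 with Hsp26.

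The 3 genes most like Hsp27 were CG5767 (r = 0.98), CG14500 (0.98) and Mlc-c (0.97), and all fell in sterile testis, with log2 fold changes of -0.86, -1.85 and -0.16. Those most like Hsp26 were Slbp (0.97), Seipin (0.96) and CG7745 (0.95). For Hsp60C they were Cpr49Ae (0.95), Cda4 (0.94) and Nazo (0.93). For Hsp60B they were CG7514 (0.95), Usp12-46 (0.88) and CG2127 (0.88), and for Hsp68 they were CG4230 (0.89), Hsp60B (0.87) and CG7514 (0.85), so CG7514 was shared by the pair.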

How the data were processed

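The authors deposited linear intensities in 1 table per tissue and array design. MAS5 is named in the submitters' processing notes, but 26 to 37 deposited testis intensities per array fall below 0, which MAS5 signals cannot do. The method behind the testis table is not given in the sources used here. Per the file headers, the authors' testis table also gives the percent of a line's arrays called present, a signed fold score and an unadjusted p-value. Its column for the experiment arrays was read as the fertile line, because its mean matched the mean of the fertile testis arrays, to 2 percent or 2 units, in 99.7% of cases. The table's per-array values (12 columns) carry names that fit samples of either tissue and were left out.

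Values below 0 were set to 0 and log2(intensity + 16) was taken. Testis probe sets entered if called present on 100% of the arrays of at least 1 line (9927 of 18769). Abdomen probe sets entered if their mean reached the table's median (6983 of 14010, which include 44 controls). Each tissue was fitted alone with limma 3.58.1 in R 4.3.3 (lmFit, eBayes with an intensity trend), with Benjamini-Hochberg adjustment over all probe sets tested. The difference between tissues was fitted over all 12 arrays with 1 variance factor per tissue. A gene with several probe sets was represented by that with the highest mean. Levels were not otherwise set against each other between probe sets, and never between tables. The fits were tested on simulated data. There the joint fit of both tissues let more unchanged genes pass than its threshold states, and separate fits with Satterthwaite degrees of freedom came closer to it. Those separate fits were therefore added as an alternative. The number of arrays limits the precision.

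Replicate letters were checked as pairs by the correlation of same-lettered deviations from the group means. In abdomen these were 0.15, 0.29 and 0.26, so the letters were taken to pair the samples. The labels give the letters alone, and the main fits did not use the pairing. Alternatives were array centring, quantile normalization, pseudocounts of 1 and 64, no filter, no variance trend, no array weights, a replicate block and leaving out each array. The members, gene lists and marker lists were chosen with earlier results of these data known. Named genes are all members and, per list and tissue, the called genes with the largest rise and fall. CG11267 and nudC are the only called genes of their direction in their lists. Hsp60A and Hsf, the Hsp70 probe sets, the shared probe sets and the germ cell relation were added after the values were seen. The names come from the platform annotation (testis: 13647 probe sets with 1 symbol, 402 with several, 4720 with none; abdomen: 12443, 327 and 1196). No member matched the D. simulans gene table used here (assembly Prin_Dsim_3.1), so no position is given.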

Additional observations from a re-analysis of the deposited data

Results flagged for a closer look

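The line difference of Hsp27 was of opposite sign in the tissues and the difference passed its test, at -0.96 on the log2 scale for testis minus abdomen (limma adjusted p = 0.0350). In testis it was -0.58 and in abdomen 0.38, the latter not called. Sterile replicate B of abdomen was the highest array for Hsp27, and without it the difference was -0.73 (adjusted p = 0.151). With each tissue fitted separately the difference was not called (adjusted p = 0.0693).

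For some pairs of probe sets annotated to Hsp22 and CG4456 together, the difference between the tissues also passed its test, which was added after the values were seen. It was 1.74 for 1630487_s_at minus 142837_at (limma adjusted p = 6.08e-05) and 1.88 for 1630487_s_at minus 142047_at (adjusted p = 0.000388). Both were called under each of the 20 alternatives. For 1630487_s_at minus 142836_at it was 0.72 and not called (limma adjusted p = 0.0802), and it was called under 1 of the 20 alternatives. The adjusted p-values of the joint fit are likely too small, as stated above. The lower intensity of the abdomen sets in the sterile line did not itself pass the adjusted threshold.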

How the results depend on the processing

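In testis 3 members were called, and 5 (4 of them higher) with arrays centred on the median or with quantile normalization. The other 11 alternatives gave 3. In abdomen no member was called under any of 13 alternatives. Over all abdomen probe sets 38 were called, against 15 without a variance trend, 65 with the replicate block and 20 to 31 with 1 array left out. In the difference between tissues, the called members went from 1 to 0 with quantile normalization, without a variance trend, with separate fits of each tissue and in 5 of the fits without 1 array (range 0 to 1). All called genes there ranged from 111 to 188 in the fits without 1 array, and were 277 with the replicate block, 257 without array weights and 185 with separate fits, against 185. Testis letters showed no pairing (correlations -0.07, 0.15 and 0.05). The replicate block gave 6117 testis calls against 5995, and changed no other call than those given.

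Signs turned only for values that did not pass the test. In abdomen, leaving out 1 array gave -0.34 to 0.11 for Hsp60C, -0.30 to 0.13 for Hsp60B, -0.52 to 0.0648 for Hsp68 and -0.18 to 0.92 for the set of Hsp60B with Ncc69. In testis it gave -0.0140 to 0.13 for Hsp70Aa with Hsp70Ab. In the difference between tissues it gave -0.16 to 0.12 for Hsp26, -0.0928 to 0.34 for Hsp60B, -0.0296 to 0.42 for Hsp60C, -0.0142 to 0.57 for Hsp68 and -1.08 to 0.0294 for Hsp60B with Ncc69. Hsp26 there was 0.0345 with arrays centred on the median and 0.0431 with quantile normalization. Where a cause is not given, the cause was not tested.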
